A study of Mus musculus with 23 samples.

Results

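Knee cartilage of mice without a working Tet1 gene was compared with that of wild-type mice 6 weeks after an operation that injures the joint. The comparison took the 6 libraries that the labels place in these groups, 3 from mutant and 3 from wild-type mice, of 23 in the series. The wild-type (WT) mice carry the label TET1+/+ and the mutant (KO) mice the label TET-/-. All were male, of the strain C57BL/6-129, and had destabilization of the medial meniscus (DMM) at 3 to 4 months of age. RNA came from micro-dissected cartilage and libraries were made by SMART-seq2, a method that amplifies full-length cDNA from small amounts of RNA. The series record calls the samples of each group biological replicates, and nothing further says which animal or how many animals each came from, so p-values measure the spread between these samples only.

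Tet1 oxidizes the methyl group of 5-methylcytosine in DNA to 5-hydroxymethylcytosine, a mark found at active genes and enhancers and an intermediate in the removal of DNA methylation. Articular cartilage is built and kept by chondrocytes, which make collagen and proteoglycan and can also release enzymes that break them down. DMM cuts a ligament that anchors the meniscus, so that load on the cartilage rises and the tissue wears as in osteoarthritis. In bulk tissue, fewer cells of a type and less RNA per cell cannot be told apart.

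Counts were deposited for 90308 transcript models, of which 26550 were assembled from the reads and 63758 carry UCSC transcript names. Models of an assembled locus were summed, which gave 12881 assembled loci, 4602 of them with 2 or more models and 182 models in the largest. No UCSC name occurred in more than 1 version, so these rows were left as they stood, and reads moved among UCSC names of a gene, or between them and an assembled locus, were not brought back together. The files do not pair these names with genes, and the RefSeq and gene-name tables at hand held 0 of them. Neither Tet1 itself nor the markers of chondrocytes, bone, synovium, muscle or blood could therefore be read, and the genotype and tissue labels were not checked against expression. What follows describes loci by their names in the files, at most 2 in each direction with 1 further assembled locus, and groups of loci by how they behave.

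The WT DMM libraries held 71.0 M, 34.9 M and 85.7 M counts and the KO DMM libraries 62.2 M, 66.7 M and 59.96 M. Values are given in CPM, counts scaled to the same total in every library, and 3 counts, taken as the floor, correspond to 0.0350 to 0.0860 CPM. No 2 columns of the table were identical. Outside the comparison, 1 WT sham column at 6 weeks was out of step with the row names (Spearman correlation -0.01 to 0.01 with the other columns over 42932 models, against 0.62 to 0.82 among the other 22) and was not used. Shams appear below only as values beside the DMM libraries. The labels call them both contralateral and age-matched, so whether they share mice with the DMM groups is not settled.

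Few loci separated the genotypes beyond the spread between replicates. Of 40032 summed loci with enough counts to test, the median log2 fold change, KO over WT, was 0.03 and the median absolute log2 fold change 0.48. One locus, lower in KO, passed an adjusted p of 0.05 in edgeR's quasi-likelihood test with Benjamini-Hochberg adjustment, 0.0025% of those tested. At an unadjusted p below 0.05 there were 2916 loci, 7.28% of those tested, of which 1186 were higher and 1730 lower in KO. An adjusted p below 0.1 was reached by 93 loci, 22 higher and 71 lower. The number of calls depended on the tool. DESeq2's Wald test on the same 6 libraries was run on all 55531 loci with a count and gave 47135 of them an adjusted p. It called 1927 loci, 699 higher and 1228 lower. On the 40032 loci, limma-voom called 0, with 3645 at an unadjusted p below 0.05. The common dispersion of the edgeR fit was 0.748, and at this spread a locus that missed the threshold is not shown to be equal in both genotypes.

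The DESeq2 calls included the single edgeR call, and 1571 of them had an unadjusted p below 0.05 in edgeR. In 1665 the ranges of KO and WT values did not overlap. In 602 at least 1 of the 6 libraries held 0 counts, and 331 had too few counts to enter the edgeR test. Only 731 had 1 CPM or more in each of the 6 libraries. Over all 40032 tested loci the ranges of the genotypes did not overlap for 6288, or 15.7%, with KO above WT in 2972 and below WT in 3316.

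**Figure D1:**
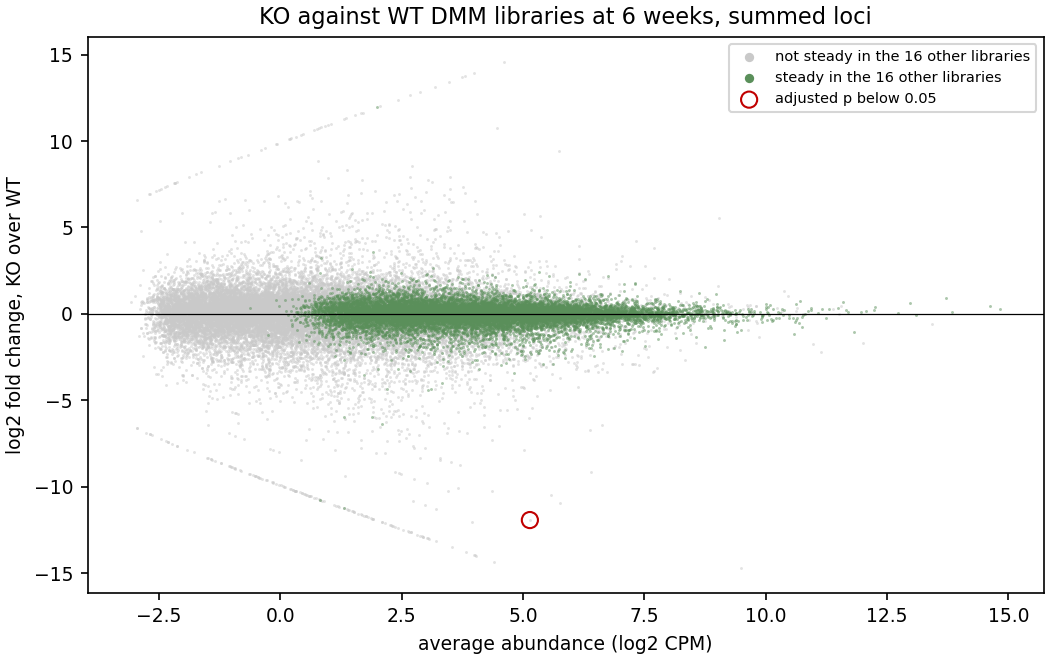
Each point is 1 of 40032 summed loci, with its average abundance in log2 CPM on the horizontal axis and the log2 fold change of KO over WT DMM libraries at 6 weeks on the vertical axis. Most points sit near 0, the diagonal lines at top and bottom are loci with 0 counts throughout 1 genotype, and the ring marks the single locus with an adjusted p below 0.05.

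Differences were larger among weakly expressed loci. The median absolute log2 fold change was 0.64 for the 9857 loci with a mean under 1 CPM, 0.54 for the 17232 loci between 1 and 10 CPM, 0.34 for the 11368 between 10 and 100 CPM and 0.22 for the 1575 above 100 CPM. The share with an unadjusted p below 0.05 ran from 5.46% in the lowest of these classes to 9.06% between 10 and 100 CPM, and was 7.17% above 100 CPM. In each class more of these loci were lower than higher in KO.

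The 20 most abundant loci, with means of 2851 to 28746 CPM, took 12.4% to 17.6% of the counts in WT and 15.1% to 18.5% in KO libraries. Of these 20, 16 were at a higher mean in KO and none passed the adjustment in edgeR. The ranges were apart for 5 of the 20, against 15.7% of all tested loci. An unadjusted p below 0.05 in edgeR was reached by 5 of the 20, against 7.28% of all tested loci. The median absolute log2 fold change of the 20 was 0.31 and the largest was 1.67. Assembled loci took 25.3% ± 1.10 (SD, n = 3) of the counts in KO and 23.9% ± 1.07 (SD, n = 3) in WT, a difference of 1.36 percentage points (exact permutation test, two-sided p = 0.2, where 0.1 is the smallest p that 3 against 3 allows). With the 20 most abundant loci left out the shares were 27.7% ± 0.808 and 25.3% ± 0.748, and their ranges no longer overlapped (exact permutation p = 0.1). After thinning each library to the depth of the smallest, 41042 ± 591 loci (SD, n = 3) had 3 or more counts in KO and 41354 ± 595 in WT (exact permutation p = 0.6).

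Correlations within and between genotypes overlapped. Over the tested loci, Spearman correlations of log2 CPM were 0.79 to 0.81 among KO libraries, 0.79 to 0.83 among WT libraries and 0.75 to 0.81 between genotypes. A principal component analysis placed the genotypes on opposite sides of the first component, which held 26.7% of the variance: WT libraries lay at -85.1, -267.2 and -29.1 and KO libraries at 136.3, 172.8 and 72.3. The WT library farthest from 0 was replicate 2, which also had the fewest counts.

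The called locus, uc008zqb, fell in KO. It stood at 70.6, 77.6 and 61.6 CPM in the 3 WT DMM libraries. Each of the 3 KO DMM libraries held 1 count. Every WT value was above every KO value, with 13004 counts in WT against 3 in KO, a ratio of pooled CPM of 4273 (95% exact interval 1462 to 20722, for counting error only). The log2 fold change was -11.93 (SE 0.32, adjusted p = 0.00133 in edgeR's quasi-likelihood test). Leaving out KO replicate 3 ended the call (adjusted p = 0.0532), as did fitting all 10 usable 6-week libraries together (adjusted p = 0.631) or using limma-voom (adjusted p = 0.0800).

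The level of uc008zqb did not follow genotype in the other libraries. At 6 weeks after sham surgery it was 0.152 CPM in the usable WT library and 0, 36.7 and 65.8 CPM in the KO libraries. At 12 weeks after DMM it was 81.5, 0.0208 and 0.0200 CPM in WT and 0.744, 69.1 and 72.5 CPM in KO. Each genotype thus held libraries with and without this transcript, at both times. The genotype difference after DMM at 12 weeks was 0.78 on the log2 scale (SE 2.79, adjusted p = 0.9998 in edgeR).

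By the smallest p, the next locus lower in KO was uc012dxr, which did not pass in edgeR. Its level was 148.1, 114.2 and 57.3 CPM in WT DMM and 0.0804, 0.0450 and 0.0334 CPM in KO DMM libraries. The groups did not overlap (log2 fold change -10.93, SE 0.67, adjusted p = 0.0517 in edgeR and 1.73e-44 in DESeq2). All 3 KO sham libraries at 6 weeks were also at or near 0, at 0, 0 and 0.0307 CPM, and the WT sham library stood at 57.3 CPM. At 12 weeks after DMM the KO libraries held 219.1, 138.6 and 93.5 CPM and the WT libraries 140.2, 96.0 and 14.7 CPM, so the groups overlapped. At 12 weeks after sham surgery the WT libraries held 0.292, 90.5 and 90.9 CPM and the KO libraries 0.755, 65.8 and 96.3 CPM. This transcript was thus low in replicate 1 and high in replicates 2 and 3 of both genotypes there. The genotype difference after DMM at 6 weeks differed from that at 12 weeks (interaction -11.70 on the log2 scale, SE 1.21, adjusted p = 0.00500 in edgeR).

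Among loci higher in KO none passed in edgeR, whereas DESeq2 called 699, including both loci described next (adjusted p = 1.22e-25 and 9.45e-14). The smallest p in edgeR belonged to the assembled locus MSTRG.12681, with 0 counts in each WT DMM library and 51.2, 50.8 and 42.7 CPM in the KO libraries (adjusted p = 0.0517 in edgeR). Against a floor of 3 counts over the WT group, the pooled KO level was 3087-fold higher. The lower end of the 95% exact interval for the ratio of pooled CPM was 2510, for counting error only. MSTRG.12681 passed in 2 of 15 alternatives, DESeq2 and the edgeR fit of the 10 usable 6-week libraries together (adjusted p = 0.00656). It did not pass in the edgeR fit of all 22 usable libraries (adjusted p = 0.302) or in limma-voom (adjusted p = 0.0800). The KO sham libraries at 6 weeks held 62.4, 40.9 and 52.2 CPM and the WT sham library 0. At 12 weeks after DMM the WT libraries had 31.1, 29.6 and 9.50 CPM and the KO libraries 0, 37.5 and 47.2 CPM.

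The next was uc008pco, at 0.0282, 0.0287 and 0.0233 CPM in WT and 1.95, 2.34 and 3.20 CPM in KO DMM libraries. All KO values were above all WT values, which rest on 5 counts in total (ratio 95.2, 95% exact interval 40.5 to 294, for counting error only; adjusted p = 0.0720 in edgeR). In 1 KO sham library at 6 weeks it stood at 4.21 CPM, and in the other 2 at 0.213 and 0.0460 CPM. Levels of 5.31 and 4.83 CPM were also found in 1 WT DMM and 1 WT sham library at 12 weeks.

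**Figure D2:**
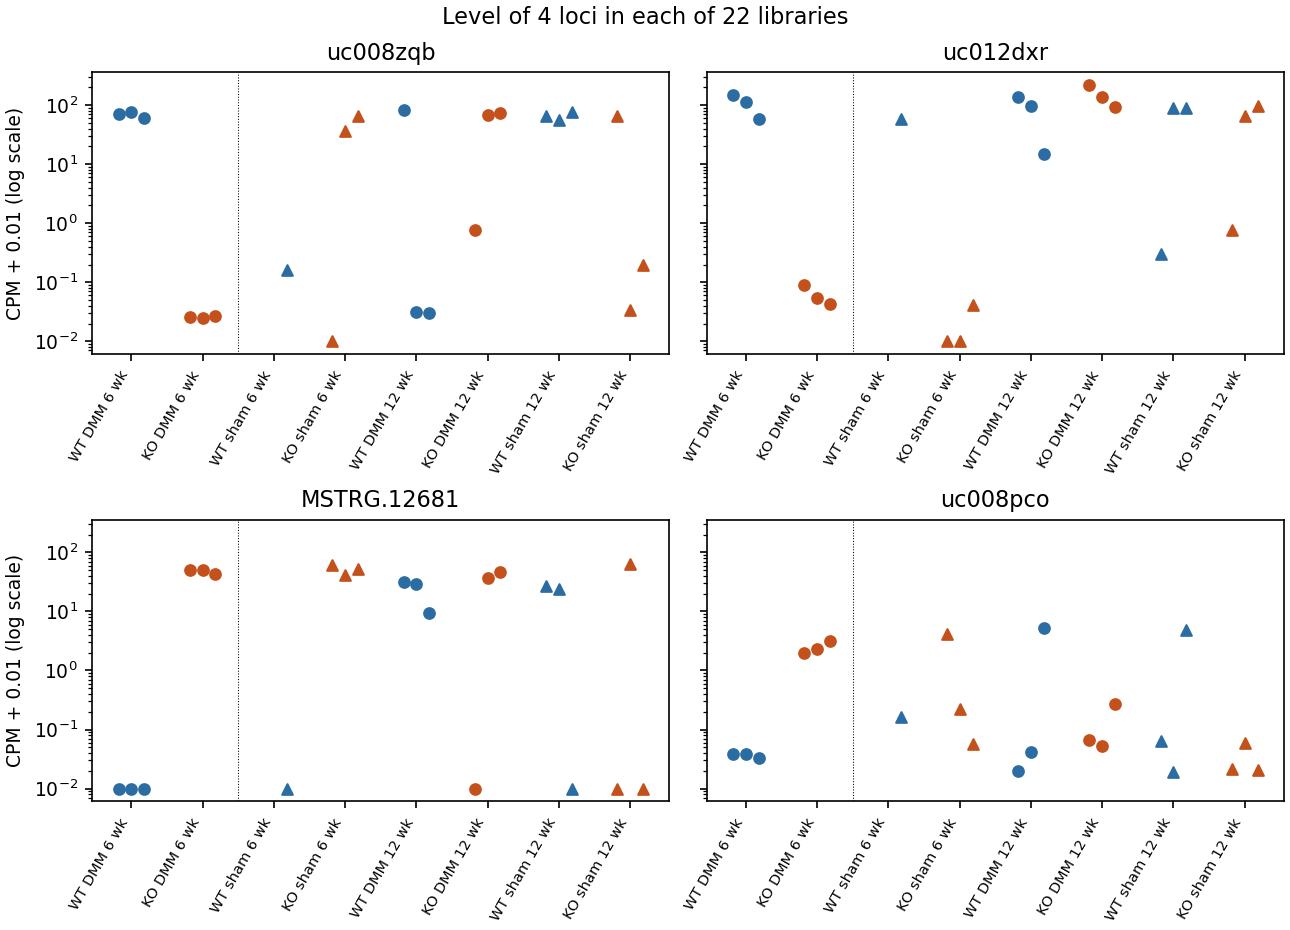
Points give the level of 4 loci in each of the 22 usable libraries as CPM + 0.01 on a log axis, with WT in blue, KO in orange, DMM as circles and sham as triangles. The 6 libraries left of the dotted line separate by genotype. Outside them each locus is found both high and near 0, within a group for some groups (uc008zqb in WT DMM at 12 weeks) and alike in all 3 libraries for others (uc012dxr in KO sham at 6 weeks).

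Levels that switched between libraries were frequent. Of 17493 tested loci that reached 10 CPM in at least 1 of the 6 libraries, 2129, or 12.2%, were below 0.1 CPM in at least 1 other. Of these, 1504 carry UCSC names and 625 are assembled loci. Most switched within a genotype: 1436 were below 0.1 CPM in some but not all KO libraries and 1285 in some but not all WT libraries, and some did both. Loci below 0.1 CPM in 1 library alone, 616 for KO and 515 for WT, can only count as switching within a genotype. The pattern followed genotype exactly in 65 loci, 50 below 0.1 CPM in all 3 KO and no WT library and 15 below it in all 3 WT and no KO library. A further 171 loci were below it in 2 KO and 1 WT library and 155 in 1 KO and 2 WT libraries. These mixed patterns can arise from more choices of libraries than a whole genotype can. Of the 65, 62 were also below 0.1 CPM in at least 1 of the 16 usable libraries outside the comparison, and 2 were above 1 CPM in all 16. All 65 had an unadjusted p below 0.05 and 1 passed the adjustment in edgeR. They were chosen on the same 6 libraries, so these low p-values are a description.

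**Figure D3:**
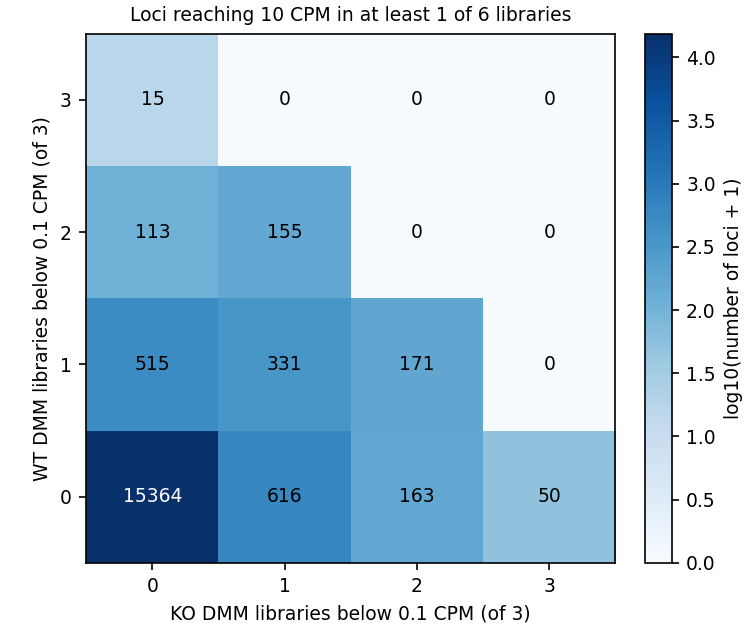
Cells count loci that reached 10 CPM in at least 1 of the 6 libraries, by the number of KO libraries (horizontal axis) and WT libraries (vertical axis) below 0.1 CPM, shaded by log10(number + 1). Loci below 0.1 CPM in a whole genotype and in no library of the other number 50 for KO and 15 for WT. Among other loci with 3 libraries below it, 171 have 2 KO and 1 WT library and 155 have 1 KO and 2 WT libraries. Loci below it in a single library number 616 for KO and 515 for WT.

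To describe loci that do not switch, a subset was taken after the result for all loci was known. It held loci with at least 1 CPM in each of the 16 usable libraries outside the comparison and a highest value under 10 times the lowest, so the 6 compared libraries played no part in choosing it. These steady loci were 15171 of the 40032 tested, 4484 of them assembled, and took 76.2% to 77.8% of the counts in KO and 74.0% to 76.6% in WT libraries. Spearman correlations over them were 0.86 to 0.91 between genotypes, 0.89 to 0.91 among KO and 0.91 to 0.92 among WT libraries. Fitted alone, they had a common dispersion of 0.177, against 0.748 for all loci, and a median absolute log2 fold change of 0.30.

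In this fit 3 steady loci passed an adjusted p of 0.05 in edgeR's quasi-likelihood test, 0.0198% of those tested, 2 lower and 1 higher in KO. A further 25 were below 0.1, and 1399 had an unadjusted p below 0.05, 586 higher and 813 lower. None of the 3 is the locus called among all loci. The locus that rose had 0 counts in all 3 WT DMM libraries and 6.00, 7.93 and 9.67 CPM in KO, and lay between 5.10 and 16.8 CPM in the 16 other libraries. Of the 2 that fell, a UCSC transcript had 4.13, 6.13 and 4.45 CPM in WT and 0 in every KO DMM library, against 2.91 to 7.80 CPM in the others. The remaining one, an assembled locus, had 3.85, 3.47 and 3.00 CPM in WT and 0 in each KO DMM library, against 2.20 to 4.21 CPM in the others.

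Each of the 3 was thus at 0 in 1 genotype of this comparison. Their presence in each of the 16 libraries outside it, KO and WT, sham and DMM, follows from the choice of steady loci. Their adjusted p was 0.0420. All 3 calls were lost when any library other than KO replicate 3 was left out, and 10 loci, these 3 among them, passed without KO replicate 3. DESeq2, run on 15174 steady loci, called 387, 106 higher and 281 lower, which held 2 of the 3.

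Among steady loci present at 1 CPM or more in all 6 libraries, none passed in this edgeR fit. The following 4 were chosen after their values were seen, as those with the smallest p, or the highest abundance among those with an adjusted p below 0.1, in each direction. All 4 passed in DESeq2 (adjusted p from 3.75e-15 to 3.33e-07), and 3 of them passed in edgeR when the highest value could reach 20 times the lowest (adjusted p = 0.0422), all but the transcript at 636 to 706 CPM in WT. None passed when the 10 usable 6-week libraries were fitted together (adjusted p from 0.206 to 0.321 in edgeR). Of 12 alternatives, 2 passed for those 3 loci and 1 for the remaining transcript.

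A UCSC transcript stood at 84.7, 80.3 and 115 CPM in WT and 21.0, 21.96 and 22.7 CPM in KO (log2 fold change -2.09, SE 0.23, adjusted p = 0.0610 in edgeR). In KO sham libraries at 6 weeks it held 29.5, 99.5 and 20.8 CPM, with 1 value inside the WT DMM range and the other 2 at or near the KO DMM values, and in the WT sham library 52.0 CPM, between the DMM groups.

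An assembled locus stood at 6.30, 5.87 and 7.31 CPM in WT and 33.3, 29.5 and 30.7 CPM in KO (log2 fold change 2.26, SE 0.25, adjusted p = 0.0610 in edgeR). Its KO sham values were 14.3, 41.0 and 33.8 CPM and its WT sham value 13.1 CPM. Of the more abundant pair, a transcript at 706, 668 and 636 CPM in WT was at 231, 119 and 197 CPM in KO (log2 fold change -1.89, SE 0.26, adjusted p = 0.0873 in edgeR), and at 512, 178 and 679 CPM in KO sham libraries and 769.9 CPM in the WT sham library.

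The other member of that pair had 71.2, 72.8 and 72.9 CPM in WT and 211, 277 and 230 CPM in KO DMM libraries (log2 fold change 1.73, SE 0.19, adjusted p = 0.0610 in edgeR). Its KO sham values were 78.5, 243 and 223 CPM and its WT sham value 95.1 CPM. For these 4 loci, chosen on the same libraries, the KO and WT DMM ranges at 6 weeks did not overlap. The same held for 2393 of all 15171 steady loci, 15.8%. At 12 weeks after DMM the ranges overlapped for all 4. In the order given, WT ranges there were 27.9 to 34.9, 4.18 to 12.0, 848 to 1126 and 29.2 to 64.1 CPM. KO ranges were 14.9 to 49.0, 8.06 to 22.3, 694 to 1094 and 34.5 to 94.3 CPM.

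Steady loci with an unadjusted p below 0.05 and a difference of at least 1 on the log2 scale numbered 509 lower and 295 higher in KO. These sets were chosen on the 6 libraries, so their difference there is a description. The 509 lower loci had a median log2 fold change of -1.42 and took 2.67% of the counts in WT and 1.03% in KO. The 295 higher loci had a median of 1.24 and took 0.316% and 0.782%. Assembled loci made up 115 of the lower and 132 of the higher set.

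The other libraries show where else these sets moved. Relative to the mean of the 12-week libraries, on the scale of log2(CPM + 0.5), the median of the 509 loci was -1.31, -1.74 and -1.21 in the KO DMM libraries at 6 weeks and -0.08, 0.17 and -0.19 in the WT DMM libraries. In the 3 KO sham libraries at 6 weeks it was -0.59, -1.21 and -0.30, and in the WT sham library -0.0035. The 12-week libraries lay between -0.16 and 0.23, around 0 because the scale starts from their mean. Sham and 12-week libraries took no part in the choice by genotype difference. They did choose the steady loci, which limits how far they can differ. The DMM values at 6 weeks follow from the choice of the set. The 3 KO sham values were all below the 1 WT sham value, with KO sham replicate 2 as low as a KO DMM library.

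For the 295 higher loci the medians were 0.91, 0.86 and 0.75 in KO DMM and -0.48, -0.15 and -0.44 in WT DMM libraries at 6 weeks. The KO sham libraries stood at 0.13, 0.87 and 0.61 and the WT sham library at 0.16, so KO sham replicate 1 did not share the higher level. The 12-week libraries lay between -0.30 (WT DMM replicate 3) and 0.34 (KO sham replicate 2), the latter above KO sham replicate 1 of 6 weeks. All steady loci together had medians between -0.11 and 0.09 in every usable library. With 1 usable WT sham library, no test of the sham contrast on these sets was made.

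**Figure D4:**
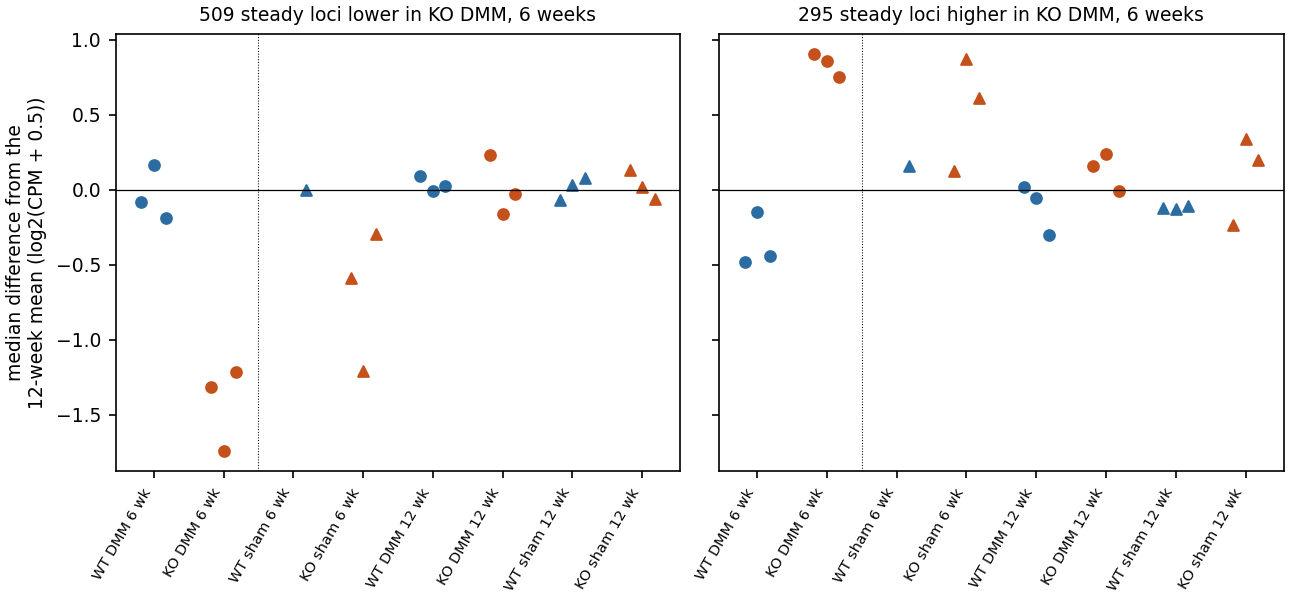
Each point is a library, with WT in blue, KO in orange, DMM as circles and sham as triangles, and the vertical axis gives the median difference of a set of steady loci from the mean of the 12-week libraries on the log2(CPM + 0.5) scale. The 6 libraries left of the dotted line chose the sets by their difference, among loci chosen as steady on the 16 others. KO sham libraries at 6 weeks lie between -1.21 and -0.30 for the 509 lower loci. The 12-week libraries lie around 0 because the scale starts from their mean.

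At 12 weeks after DMM, in 6 other libraries, no locus passed in edgeR. Of 43257 loci tested, 0 passed in edgeR (0%), with 958 at an unadjusted p below 0.05, 2.21% of those tested, 511 higher and 447 lower. DESeq2 called 496. The steady loci were chosen in part on these libraries, which limits how far they can differ here. In the 12-week contrast the 509 lower loci had a median log2 fold change of -0.02, with 9 higher and 6 lower at an unadjusted p below 0.05. All steady loci had a median of 0.01, with 203 and 116 of 15171. The 295 higher loci had a median of 0.26, with 14 higher and 2 lower.

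A test of whether the genotype difference itself differed between 6 and 12 weeks, over the 12 DMM libraries, called 77 of 46368 loci in edgeR, 0.166%, of which 66 had the lower value for the 6-week difference and 11 the higher. In 58 of the 77, all 3 libraries of a genotype were below 0.1 CPM at 6 weeks, KO in 52 and WT in 6. Of these 58, 54 were also below 0.1 CPM in at least 1 library outside the 6-week comparison. The test shares its 6-week libraries with the 6-week comparison. None of the 77 passed in edgeR's fit of all loci at 6 weeks, and the 3 loci called among steady loci are among them. Their median log2 fold change was -10.19 at 6 weeks and -0.06 at 12 weeks. Among steady loci 3 passed, 0.0198%, the same 3 as at 6 weeks. Since steady loci were chosen for a narrow range over libraries that include the 12-week DMM groups, a large genotype difference at 12 weeks was kept out by the choice, and this count largely restates that at 6 weeks. Libraries of each time were sequenced as a pool of their own, so time and sequencing pool cannot be told apart except as far as the pool acts alike on both genotypes.

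The sums hide exchange between transcript models, which was tested on its own. Tested row by row, 47160 models gave 2 calls in edgeR, 0.00424%, namely the single row of uc008zqb and a model of the assembled locus MSTRG.12573. This model, number 7 of the locus, rose from 0.113, 0.115 and 0.0700 CPM in WT to 134, 256 and 205 CPM in KO DMM libraries (adjusted p = 0.0291 in edgeR). The sum of MSTRG.12573 was 66.2, 89.8 and 91.7 CPM in WT and 148, 274 and 229 CPM in KO. The ranges of the sum were still apart, but the difference shrank from 10.96 to 1.41 on the log2 scale (SE 0.30) and did not pass (adjusted p = 0.261 in edgeR). In WT DMM libraries at 6 weeks the counts of the locus lay on other models, model 1 at 35.2 and 82.7 CPM in replicates 1 and 3 and model 2 at 81.9 CPM in replicate 2. Outside the comparison model 7 held 111, 110 and 64.8 CPM in WT DMM and 91.7, 0.0430 and 114 CPM in KO DMM libraries at 12 weeks. In KO sham libraries at 6 weeks it held 0.0997, 242 and 254 CPM, and in the WT sham library 0.228 CPM. Both row calls were lost whenever a library was left out.

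A shift in the shares of models was called in 13 of 3051 assembled loci with 2 or more tested models, 0.426%, over 10258 models (edgeR's diffSpliceDGE, Simes p per locus, adjusted p below 0.05). In 12 of the 13 the leading model differed between the genotypes. None of the 13 passed on the sum in edgeR, whose absolute log2 fold change had a median of 0.59 and ranged from 0.15 to 2.89, and 5 had an unadjusted p below 0.05 there. The count rests on the settings, since requiring a mean of 1 CPM per model left 2 loci and an F test over the models gave 44.

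In the locus with the smallest p, model 18 held 87.1, 80.3 and 93.2 CPM in WT and 0 in each KO DMM library, while model 17 held 0.535, 0.487 and 0.350 CPM in WT and 39.1, 29.8 and 86.3 CPM in KO (adjusted p = 0.000167 in edgeR). Outside the comparison model 18 led in all 3 KO sham libraries at 6 weeks, at 75.9, 65.1 and 104 CPM, and in all 3 KO DMM libraries at 12 weeks. Replicate 1 of WT DMM at 12 weeks held 89.1 CPM of model 17 and 0 of model 18. In replicates 2 and 3 of that group model 18 led, at 87.4 and 57.1 CPM. In the next locus, with 2 tested models, model 5 held 49.5, 52.4 and 48.7 CPM in WT and 0 in each KO DMM library. Model 1 held 4.65, 5.04 and 6.79 CPM in WT and 32.0, 33.1 and 46.6 CPM in KO (adjusted p = 0.00173 in edgeR). The sum was 54.2, 57.5 and 55.5 CPM in WT and 32.0, 33.1 and 46.6 CPM in KO (log2 fold change -0.59, adjusted p = 0.644 in edgeR).

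**Figure D5:**
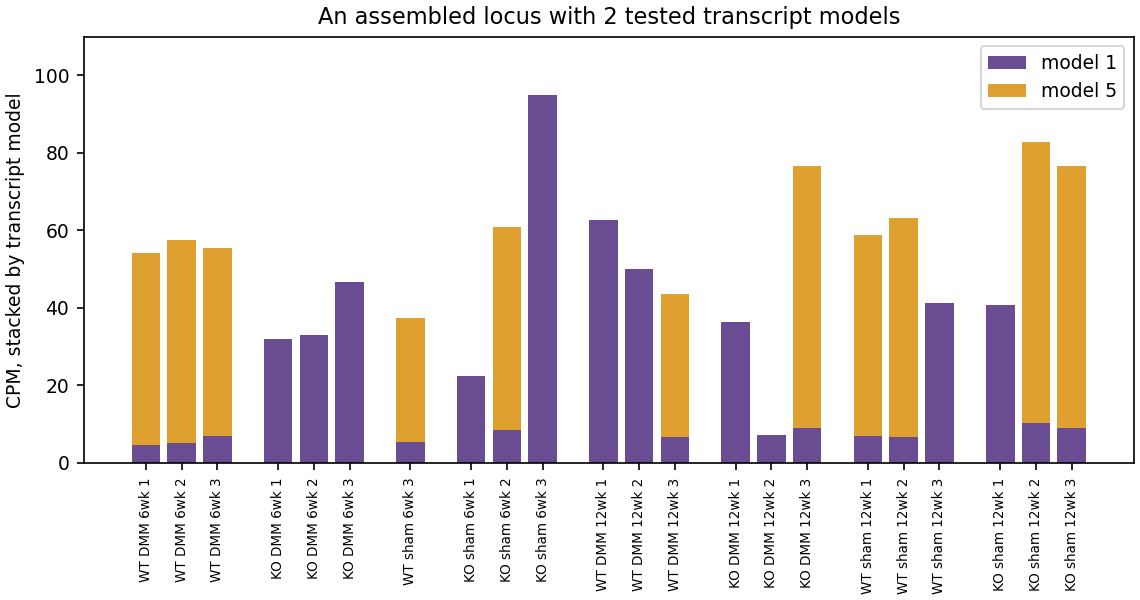
Bars give the CPM of the assembled locus with 2 tested models in each of the 22 usable libraries, stacked by model, with library names on the horizontal axis. The 3 WT DMM libraries at 6 weeks carry mostly model 5 and the 3 KO DMM libraries only model 1, while both states occur in the other groups of either genotype.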

How the data were processed

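Groups and replicate numbers came from the sample titles. Reads were handled with CASAVA 1.4, Trimmomatic and HISAT2 on mouse build mm10, and DESeq2 is named too, per the submitters' processing notes. Which program assembled and counted the transcripts is not stated in the labels or files. The authors deposited the estimated counts of each transcript model, whole and without normalization. The authors' deposited fold-change tables were not used. Rows were summed to loci, and edgeR 4.0.16 in R 4.3.3 was run on the 6 libraries (TMM, filter on low counts by group, robust quasi-likelihood test, Benjamini-Hochberg adjustment over all loci). Standard errors are the log2 fold change over the root of F. Alternatives used DESeq2 1.42.0, limma 3.58.1 and other settings. DESeq2 was run on all loci or models with a count, without the filter used for edgeR. Only the edgeR fit of loci was run on simulated data. These were negative binomial counts in which no locus was switched off in single libraries by design, so they do not cover the switching described above. Loci were named by the rule of at most 2 in each direction by largest fold change among those with adjusted p below 0.05, mean log2 CPM of at least 1 and ranges apart, filled by smallest p, with loci of called models. Intervals are exact binomial. The members and lists were chosen with earlier results of these data known, and the gene and marker lists could not be tested without gene names. The steady subset and its alternatives were added after seeing the data.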

Additional observations from a re-analysis of the deposited data

Results flagged for a closer look

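The test of the genotype difference at 6 weeks against that at 12 weeks, over the 12 DMM libraries, called 77 loci in edgeR's quasi-likelihood test with Benjamini-Hochberg adjustment, and 3 when steady loci were fitted alone. Of the loci described above, uc012dxr passed it with an adjusted p of 0.00500 in edgeR. The 3 loci called among steady loci passed it among all loci as well: the 2 that were at 0 counts in KO DMM libraries with adjusted p of 0.00194 and 0.00232, and the locus at 0 in WT DMM libraries with 0.00423. With the replicate number as a block, 0 loci passed this test.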

How the results depend on the processing

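For all loci at 6 weeks the single call became 1927 with DESeq2, 0 with limma-voom, 3 with the 10 usable 6-week libraries in 1 fit (the call not among them), 94 with all 22 usable libraries (8 higher, 86 lower, the call not among them), 0 with assembled loci alone, 2 with the largest model of each locus and 3 with steady loci alone. Leaving out 1 library gave 0 to 1 calls. The 2 calls among transcript models became 2513 with DESeq2, 1 without a filter on low counts and 0 whenever a library was left out. At 12 weeks DESeq2 called 496 loci where the other settings, leaving out each library included, called 0. The interaction called 1537 loci with DESeq2 and 52 to 143 with 1 library left out, the most without KO DMM replicate 1 of 6 weeks. Among steady loci, DESeq2 gave 387 calls, leaving out 1 library 0 to 10, and a highest value under 20 times the lowest 20 calls. Their interaction gave 85 calls with DESeq2 and 3 to 13 with 1 library left out, over 1.5 times the count without any 6-week library but WT replicate 2, and without replicate 1 of either genotype at 12 weeks. Model usage gave 2 loci with a mean of at least 1 CPM, 44 with the F test and 7 to 22 with 1 library left out: 22 without KO replicate 3, 7 without KO replicate 1 and 8 without WT replicate 3. With a replicate block, calls fell to 0 for all loci (uc008zqb, adjusted p = 0.207 in edgeR), for transcript models, for steady loci and for both interactions, and stayed at 0 at 12 weeks. The numbers do not pair the libraries: deviations from group means of same-numbered libraries correlated at -0.01, 0.01 and -0.04, and WT replicates 1 and 3 correlated best with another number. Size factors by RLE gave counts within 1.5 times in each fit. Named loci kept their direction in each alternative that gave them a value. They were chosen on the same 6 libraries, where their ranges were apart, so this largely follows from the choice. The share of assembled loci and the count of detected loci kept their direction, with differences of 0.744 to 1.82 percentage points and -634 to -9.67 loci over left-out libraries. The cause of these changes was not tested.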
